A study of Mus musculus with 10 samples.

Results

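The genes of 10 integrin subunits of mammary epithelium were followed across sorted cell populations of the mouse mammary gland. They were the beta subunits Itgb1, Itgb3, Itgb4, Itgb5 and Itgb6 and the alpha subunits Itga2, Itga3, Itga6, Itga9 and Itgav, each taken from the probe set that carried its symbol alone. Each had 1 such probe set, and all 10 were among the 15815 genes tested, of 19935 genes measured. SSKO basal cells (3 arrays) came from mice labelled Pygo2 SSKO, and control luminal cells (3 arrays) and control basal cells (4 arrays) came from control mice. The sample titles call the cells of both basal groups MaSCs, and they are named basal here after their gate. Every mouse was a virgin female of 8 to 12 weeks, and SSKO and control littermates shared a cage. Digestion was for 1.5 hours at 37 °C for every sample. The title describes the mutant cells as lacking Pygo2, a nuclear co-factor of beta-catenin, but the meaning of SSKO, the driver of the deletion, the strain and the number of animals behind a sample are not stated in the labels. The samples are labelled as biological replicates, and the p-values measure the spread between them. SSKO luminal cells were not analysed here.

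Integrins are dimers of an alpha and a beta subunit that span the cell membrane and tie the extracellular matrix to the cytoskeleton. In the mammary gland the basal cells lie against the basement membrane and carry many of the laminin- and collagen-binding dimers. The beta1 subunit pairs with many alpha subunits, beta4 pairs with alpha6, and alphav pairs with several beta subunits, of which beta6 is known for activating latent TGF-beta.

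A pair of these proteins also defined the sort. CD29 is the product of Itgb1 and CD61 the product of Itgb3. Basal cells were gated as CD29-high and CD24-positive, and luminal cells as CD29-low, CD24-positive and CD61-negative, both without CD31, CD45 and TER119. The luminal and basal levels of Itgb1 and Itgb3 were thus tied to the gate and are given as a description. CD61 was no part of the basal gate.

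Population markers followed the group names used here. In control luminal against control basal arrays, 15 of 15 basal and myoepithelial markers were lower and 11 of 12 mature luminal markers higher. Pygo2 averaged 6.26 ± 0.63 in SSKO basal (SD, n = 3) and 8.60 ± 0.47 in control basal (SD, n = 4) arrays, a difference of -2.34 (SE 0.32, limma adjusted p = 0.0441), and it was not determined whether its probe set covers the deleted stretch. The SSKO mean lay under the filter level of 6.74. The Pygo2 difference was negative in all 24 alternatives that tested it, from -2.76 to -1.78, but it was called in 10 of them, and its call ended in 7 of the 10 fits without 1 array (limma adjusted p from 0.0243 to 0.476 over the alternatives). Markers of other cell types gave signal, and whether such cells were present was not tested. Over 12 endothelial markers the summed intensity was 4592 to 28262 in SSKO basal, 3465 to 4874 in control luminal and 4825 to 14277 in control basal arrays. Over 10 fibroblast markers it was 12162 to 17674 in SSKO basal, 1603 to 6964 in control luminal and 14406 to 28675 in control basal arrays. No marker of these lists was at 0 on any array, which does not by itself show presence. In all luminal arrays, 3 of the 10 fibroblast markers lay under 6.74. The mature luminal mean was 10.32 to 10.57 in SSKO basal and 9.59 to 10.18 in control basal arrays on the log2 scale. Of the 12 markers behind it, 1 was called higher in SSKO than in control basal cells and 11 did not pass. The called marker was Cited1, with a difference of 1.56 (SE 0.18, limma adjusted p = 0.0103). Of all genes, 0.0316% were called higher. For Cited1, Foxa1, Krt19, Cldn3 and Cldn4, picked after their values were seen, all SSKO arrays lay above all control basal arrays. The other markers of this list overlapped. That order was found for 2.45% of all genes. Among luminal arrays, array 3 had the highest basal marker mean, 9.68 against 8.55 and 8.06 in arrays 1 and 2.

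**Figure D1:**
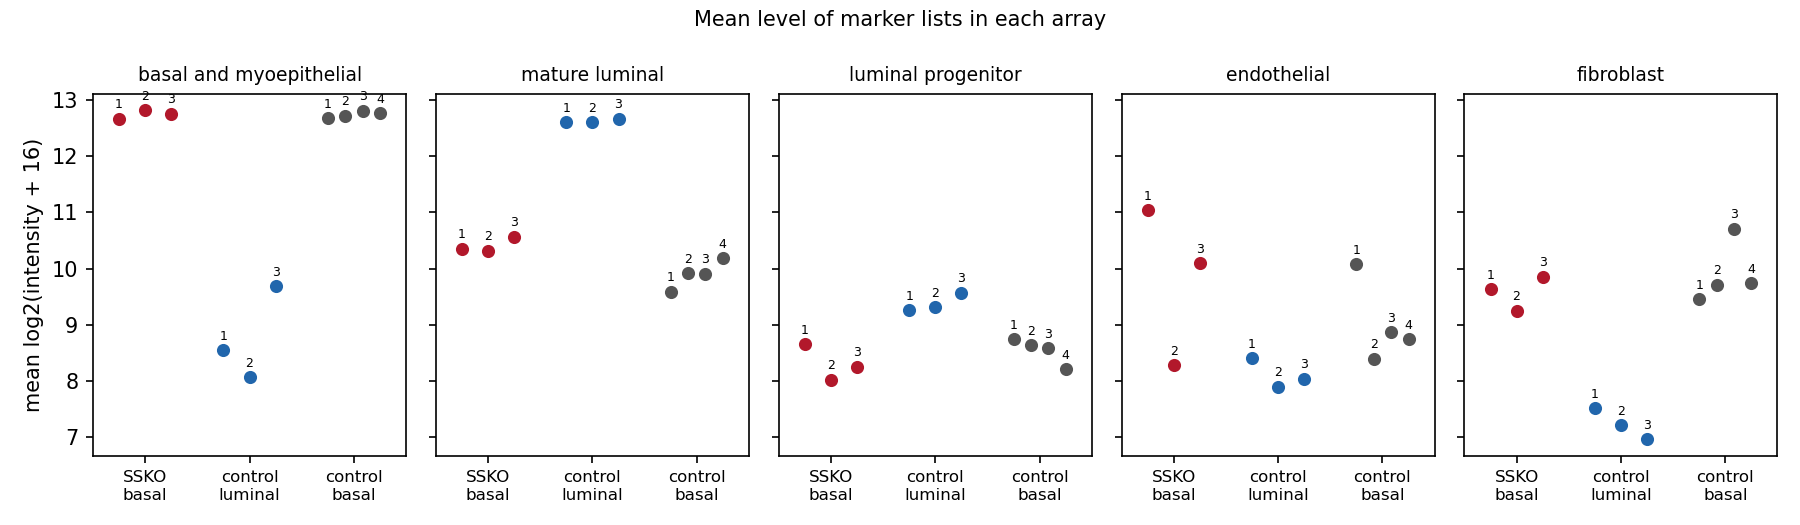
Mean log2(intensity + 16) of 5 marker lists (vertical axis) in each array, by group (horizontal axis), with the replicate number above each point. Endothelial markers were brightest in SSKO basal arrays 1 and 3 and control basal array 1, and fibroblast markers were dimmer in the 3 luminal arrays than in any basal array.

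Levels are given as log2(intensity + 16), and differences are differences of such levels, which understate the change of dim genes. Levels of different genes come from different probe sets and are not compared. A gene was called when its Benjamini-Hochberg adjusted p from limma, fitted across all genes, was under 0.05. In bulk RNA, fewer cells of a type and less RNA per cell cannot be told apart.

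The first comparison, of control luminal with control basal cells, asked how the integrin genes differ between the epithelial layers. Of the 10 genes, 7 were called lower in luminal cells (Itga9, Itgb3, Itga2, Itga3, Itgb1, Itga6 and Itgb4) and 3 did not pass (Itgav, Itgb5 and Itgb6). The background was broad, since 44.3% of all genes were called, 24.6% higher and 19.7% lower. An unadjusted p under 0.05 was reached by 8 of the 10 and by 50.1% of all genes. Among the 8 genes outside the gate, 5 fell and 3 did not pass. The groups did not overlap for 7 of the 10, with luminal arrays the lower in each, against 46.3% of all genes, 25.8% in the upward and 20.5% in the downward direction. The median difference of the 10 was -0.72, and 0.067 over all genes tested. For the 8 genes outside the gate the median was -0.55, and luminal arrays lay below all control basal arrays in 5.

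**Figure D2:**
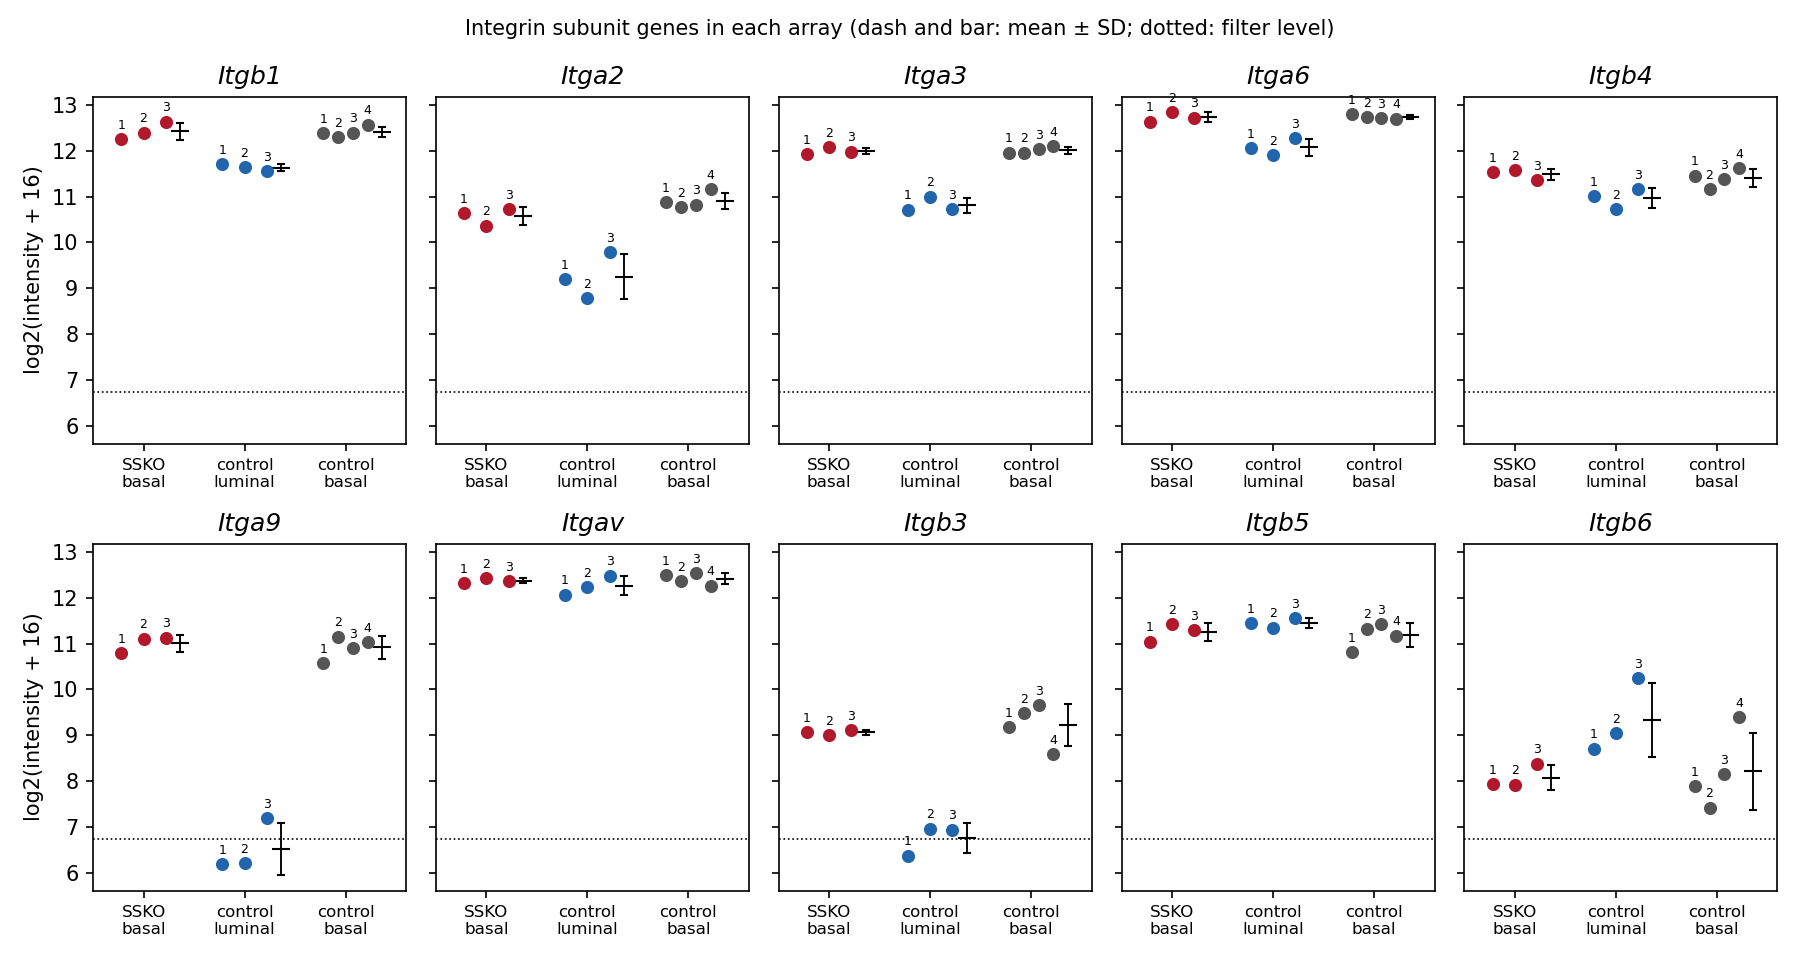
log2(intensity + 16) of the 10 integrin genes (vertical axis) in each array, by group (horizontal axis), with the replicate number above each point, the mean and SD beside the points and the filter level of 6.74 dotted. Luminal arrays sit well below both basal groups for Itga9, Itgb3, Itga2 and Itga3, and overlap the control basal range for Itgav, Itgb5 and Itgb6.

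Itgb1 encodes the beta1 subunit (CD29), the common partner of alpha2, alpha3 and alpha9. Its levels were 11.71, 11.64 and 11.55 in control luminal arrays and 12.39, 12.29, 12.40 and 12.57 in control basal arrays. Luminal arrays lay below all basal arrays, with a difference of -0.78 (SE 0.12), or 1.71-fold lower. All 3 luminal levels of Itgb1, from cells sorted as CD29-low, stayed above the filter level drawn in the plot of array values. Cd24a, which encodes the other positive marker of the gate, averaged 13.48 ± 0.18 in control luminal (SD, n = 3) and 12.06 ± 0.10 in control basal (SD, n = 4) arrays.

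Itgb3 encodes beta3 (CD61), a partner of alphav. Its levels were 6.37, 6.96 and 6.94 in control luminal arrays and 9.17, 9.48, 9.65 and 8.59 in control basal arrays. Again the groups did not overlap, and the difference was -2.47 (SE 0.24). Luminal array 1 lay under 6.74, the mean level that probe sets had to reach, so the size of this difference is not well determined. The basal cells, which were not selected on CD61, held Itgb3 above that level in all 7 arrays.

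Itga9, whose alpha9 subunit pairs with beta1 and binds tenascin-C and osteopontin, showed the largest difference of the 10. Its levels were 6.18, 6.21 and 7.18 in control luminal arrays and 10.58, 11.15, 10.91 and 11.03 in control basal arrays. No luminal array came near a basal one, and the difference was -4.39 (SE 0.24, limma adjusted p = 1.03e-07). Luminal arrays 1 and 2 lay under 6.74, and with values under that level raised to it, an alternative added after seeing the data, the difference was -4.03. No exact fold can be given for Itga9. The highest luminal value was that of array 3, the luminal array with the most basal marker signal, whose part in it was not tested.

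Itga2, the alpha2 subunit of a collagen receptor with beta1, had levels of 9.20, 8.79 and 9.78 in control luminal arrays and 10.88, 10.77, 10.82 and 11.16 in control basal arrays. It was lower in every luminal array, by a difference of -1.65 (SE 0.21, limma adjusted p = 7.15e-05), or 3.14-fold. Luminal array 3 was again the highest of its group. Itga2 and Itgb3 are both used as surface markers of mouse luminal progenitors, and were the 2 genes of that list of 8 that fell in luminal cells, where 4 rose and 2 did not pass. The luminal cells were sorted as CD61-negative, so the fall of Itgb3 was tied to the gate. The part of that gate in the Itga2 difference was not tested. Of the 4 that rose, the kinase receptor Kit and the transcription factor Elf5, which had the smallest p and were chosen after their values were seen, had differences of 3.06 (SE 0.29) and 2.75 (SE 0.23), limma adjusted p = 7.02e-06 and 2.70e-06.

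Itga3, the alpha subunit of the laminin receptor alpha3beta1, had levels of 10.71, 11.00 and 10.72 in control luminal arrays and 11.96, 11.95, 12.03 and 12.10 in control basal arrays. All luminal arrays lay below all basal arrays, with a difference of -1.20 (SE 0.11, limma adjusted p = 7.52e-06). Itga6 (CD49f), which forms laminin receptors with beta1 or beta4, had levels of 12.05, 11.90 and 12.27 in control luminal arrays and 12.80, 12.74, 12.71 and 12.70 in control basal arrays. The 4 basal arrays were nearly alike and all luminal arrays lower, with a difference of -0.66 (SE 0.12, limma adjusted p = 8.10e-04).

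Itgb4, the hemidesmosome subunit that pairs with alpha6, had levels of 11.01, 10.72 and 11.16 in control luminal arrays and 11.46, 11.17, 11.38 and 11.62 in control basal arrays. Luminal array 3 and basal array 2 nearly met, without overlap. The difference of -0.44 (SE 0.15, limma adjusted p = 0.0286) was called, but the call ended in 4 of the 10 fits without 1 array. These left out control luminal array 1 (-0.46, adjusted p = 0.0613) or 2 (-0.32, adjusted p = 0.139), or control basal array 1 (-0.42, adjusted p = 0.0553) or 4 (-0.37, adjusted p = 0.0751).

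Itgav, the alphav subunit, had levels of 12.06, 12.24 and 12.48 in control luminal arrays and 12.50, 12.37, 12.54 and 12.27 in control basal arrays. These ranges overlapped, and the 95% interval of the difference was -0.44 to 0.12 (limma adjusted p = 0.370). Itgb5, a beta partner of alphav that binds vitronectin, had levels of 11.44, 11.35 and 11.55 in control luminal arrays and 10.82, 11.32, 11.43 and 11.17 in control basal arrays. The interval was -0.089 to 0.61 (limma adjusted p = 0.219). The luminal arrays of Itgb5 lay inside or just above the upper part of the basal range.

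Itgb6, the beta6 subunit that forms a receptor for latent TGF-beta with alphav, was the most variable. Its levels were 8.70, 9.04 and 10.25 in control luminal arrays and 7.89, 7.42, 8.15 and 9.39 in control basal arrays. Basal array 4 lay above luminal arrays 1 and 2, and the other 3 basal arrays lay below all luminal ones. The difference was 1.12 (SE 0.45), with a 95% interval of 0.13 to 2.10, and did not pass (limma adjusted p = 0.0638). It passed without control luminal array 1 (1.43, adjusted p = 0.0411) or control basal array 4 (1.51, adjusted p = 0.00594), and was 0.66 without control luminal array 3. Basal array 4 had the highest mature luminal marker mean of its group, 10.18 against 9.59, 9.91 and 9.91 in arrays 1 to 3, and its part in the Itgb6 value was not tested.

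**Figure D3:**
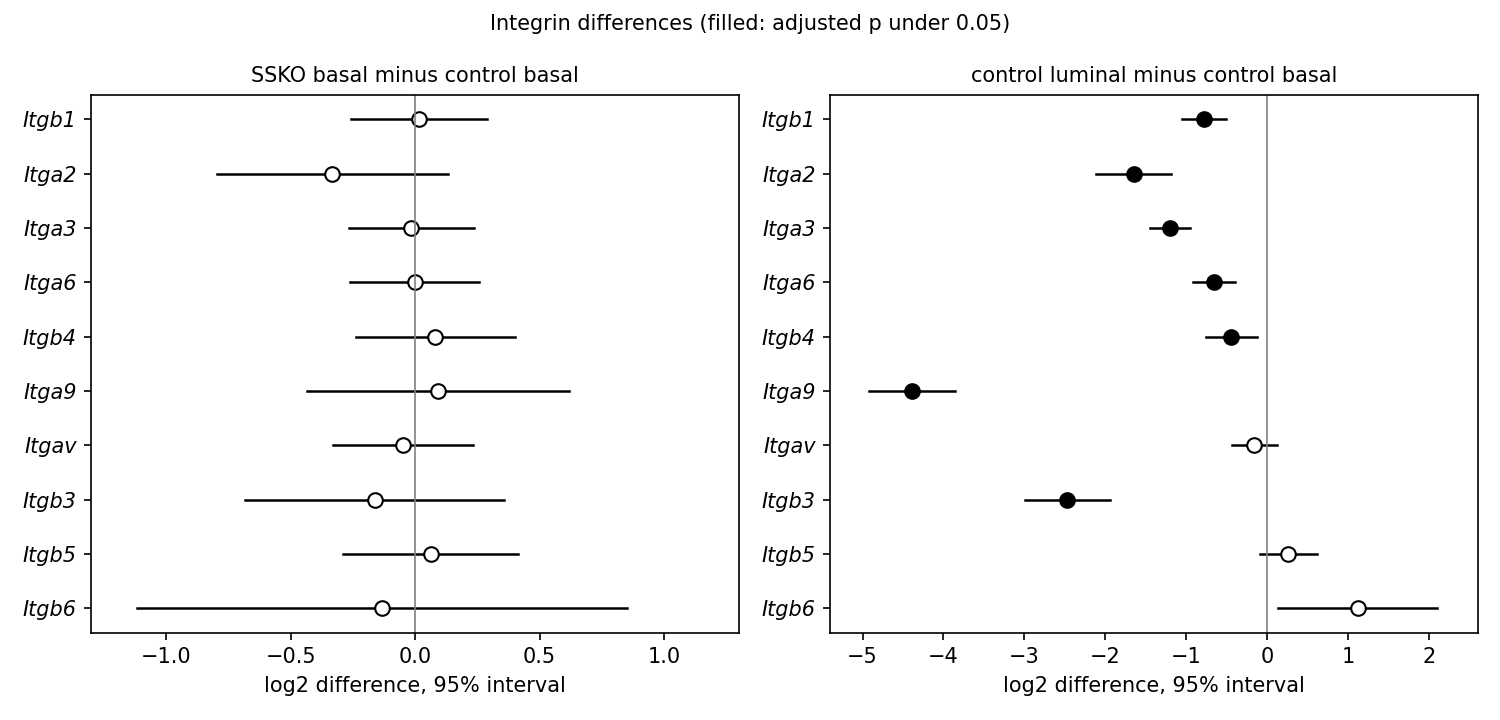
log2 differences of the 10 integrin genes (points, horizontal axis) with 95% intervals from limma, for SSKO basal minus control basal (left) and control luminal minus control basal (right), on axes of different range. Filled points passed an adjusted p of 0.05. All 10 intervals on the left cover 0, whereas on the right 7 genes passed, from -0.44 for Itgb4 to -4.39 for Itga9, with Itgb1 and Itgb3 tied to the gate.

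Upstream sequence is shown for 4 genes that differ in pattern, namely Itgb1, Itga3 and Itga2, which were lower in luminal cells, and Itgb6, which was not. RefSeq promoters on GRCm38.p6 were matched for 7 of the 10 genes, and Itgb3, Itgb4 and Itga6 are named only. Each line gives the 250 bases before 1 annotated start, 5′ to 3′ on the gene's strand. Capitals mark matches, on either strand, to the letters of 4 motifs, TCF/LEF (CTTTGA or CTTTGT), AP-1 (TGANTCA), TEAD (GGAATG) and the GC box (GGGCGG), none of which overlap here.
Itgb1, chr8:128685404-128685653, plus strand: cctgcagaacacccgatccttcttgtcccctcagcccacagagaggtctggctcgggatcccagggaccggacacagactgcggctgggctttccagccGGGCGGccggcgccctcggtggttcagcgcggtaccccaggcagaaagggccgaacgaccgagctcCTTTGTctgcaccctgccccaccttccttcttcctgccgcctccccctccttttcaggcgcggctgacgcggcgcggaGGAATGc
Itga3, chr11:95076715-95076964, minus strand: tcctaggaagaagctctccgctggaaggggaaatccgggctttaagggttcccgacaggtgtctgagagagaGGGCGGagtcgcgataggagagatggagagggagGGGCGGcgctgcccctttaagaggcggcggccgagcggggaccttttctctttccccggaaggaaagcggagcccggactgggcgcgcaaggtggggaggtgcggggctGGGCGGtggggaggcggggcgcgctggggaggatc
Itga2, chr13:114932101-114932350, minus strand: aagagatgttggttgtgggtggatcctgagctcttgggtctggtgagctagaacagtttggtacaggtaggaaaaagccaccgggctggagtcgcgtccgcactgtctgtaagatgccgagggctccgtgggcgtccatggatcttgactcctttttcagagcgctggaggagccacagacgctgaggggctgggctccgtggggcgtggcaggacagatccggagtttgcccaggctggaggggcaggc
Itgb6, chr2:60722604-60722853, minus strand: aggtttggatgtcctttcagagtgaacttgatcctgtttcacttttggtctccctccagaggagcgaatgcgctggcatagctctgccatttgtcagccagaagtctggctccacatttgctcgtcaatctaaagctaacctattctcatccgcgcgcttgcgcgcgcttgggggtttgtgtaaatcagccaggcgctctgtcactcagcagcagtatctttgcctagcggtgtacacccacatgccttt

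The Itgb1 window held 1 TCF/LEF, 1 TEAD and 1 GC box match, and the Itga3 window held 3 GC boxes. A further annotated start of Itga3, not printed, had 1 TCF/LEF and 1 GC box match in its window, and a further one of Itgb6 had none of the 4. The letters of the 4 motifs were not in the Itga2 and Itgb6 windows. Of 32851 promoters of this length, 27.6% held the TCF/LEF letters, 6.75% AP-1, 12.6% TEAD and 32.7% the GC box. GC content was 68.0% for Itgb1, 67.6% for Itga3, 60.8% for Itga2 and 52.0% for Itgb6, and its median over all promoters was 52.4%. The matched genes not printed differed from this order. Itgb5, not called in luminal cells, had 3 GC boxes and 65.2% GC. Itgav, also not called, had none of the 4 motifs and 64.4%. Itga9, with the largest luminal difference, had none of the 4 and 58.4%. These matches describe letters only.

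The second comparison, of SSKO and control basal cells, asked how the integrin genes differ where Pygo2 is lost. None of the 10 passed in SSKO basal cells (limma, every adjusted p 1.00 after rounding), and 0 had an unadjusted p under 0.05. Of all genes, 0.0379% were called, 0.0316% higher and 0.00632% lower, and 3.03% had an unadjusted p under 0.05. The differences of the 10 ran from -0.33 to 0.093, with 4 above and 6 below 0. Their median size was 0.072, and 0.099 over all genes. The intervals show which sizes the arrays could still hold.

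Itgb1 had levels of 12.26, 12.39 and 12.63 in SSKO basal arrays and 12.39, 12.29, 12.40 and 12.57 in control basal arrays. The groups overlapped, and the difference of 0.017 had a 95% interval of -0.26 to 0.29 in cells that were all sorted as CD29-high. Itgb3 had levels of 9.07, 9.01 and 9.11 in SSKO basal arrays and 9.17, 9.48, 9.65 and 8.59 in control basal arrays. The SSKO arrays were close together, below control basal arrays 1 to 3 and above array 4, so that the groups overlapped through that array alone. The difference was -0.16, with an interval of -0.68 to 0.36. It was -0.37 without control basal array 4 and -0.021 without control basal array 3, and did not pass in either fit.

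Of the laminin receptor genes, Itga3 averaged 12.00 ± 0.07 in SSKO basal (SD, n = 3) and 12.01 ± 0.07 in control basal (SD, n = 4) arrays, with an interval of -0.27 to 0.24. Itga6 averaged 12.73 ± 0.10 in SSKO basal (SD, n = 3) and 12.73 ± 0.04 in control basal (SD, n = 4) arrays, with an interval of -0.26 to 0.26. Itgb4 averaged 11.49 ± 0.12 in SSKO basal (SD, n = 3) and 11.40 ± 0.19 in control basal (SD, n = 4) arrays, with an interval of -0.24 to 0.40. The groups overlapped for all 3 genes. Itga9, the gene with the largest luminal difference, averaged 11.01 ± 0.19 in SSKO basal (SD, n = 3) and 10.92 ± 0.25 in control basal (SD, n = 4) arrays, with an interval of -0.43 to 0.62. Itgav (interval -0.33 to 0.23) and Itgb5 (-0.29 to 0.41) overlapped as well.

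Itga2 alone among the 10 had SSKO and control arrays that did not overlap. Its levels were 10.64, 10.36 and 10.72 in SSKO basal arrays and 10.88, 10.77, 10.82 and 11.16 in control basal arrays, the SSKO arrays all being lower. The difference of -0.33 (SE 0.21, 95% interval -0.79 to 0.13) did not pass, with limma adjusted p = 1.00 and unadjusted p = 0.143. Such non-overlap was found for 4.46% of all genes, 2.45% with SSKO above and 2.02% with SSKO below. The Itga2 difference lay between -0.41 and -0.23 when any 1 array was left out, and was -0.55 when SSKO basal arrays 1 and 3 and control basal array 1 were left out, which keeps 1 SSKO array that is assumed to vary like the other groups.

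Itgb6 had levels of 7.93, 7.92 and 8.38 in SSKO basal arrays and 7.89, 7.42, 8.15 and 9.39 in control basal arrays. The SSKO arrays lay within the wide control range, and the interval, -1.12 to 0.85, was the widest of the 10. Without control basal array 4 the difference was 0.26, with the sign turned.

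Among 16 further integrin subunit genes, 14 were tested, and 7 fell and 7 did not pass in luminal cells, with a median of -0.49. Of all genes tested, 24.6% were called higher and 19.7% lower in luminal cells, with a median of 0.067. These are the shares to set beside the luminal counts of this and the following lists. Itga1, another collagen receptor subunit, averaged 6.68 ± 0.39 in control luminal (SD, n = 3) and 10.97 ± 0.28 in control basal (SD, n = 4) arrays, a difference of -4.29 (SE 0.20, limma adjusted p = 3.56e-08). Its luminal mean lay under 6.74, as did that of Itgb2, so the full size of these differences is not known from the arrays. Itgb8, another partner of alphav, chosen after its values were seen, also fell, with a difference of -2.08 (SE 0.34, limma adjusted p = 4.09e-04). Differences were -2.58 (SE 0.26) for Itga8, a subunit that binds nephronectin, -1.80 (SE 0.21) for the fibronectin receptor subunit Itga5 and -0.93 (SE 0.14) for the leukocyte subunit Itgb2, all with limma adjusted p under 0.05. In SSKO basal cells 0 of the 14 passed in limma. The smallest p were those of the platelet subunit Itga2b, with a difference of 0.47 (SE 0.20) and an unadjusted limma p of 0.0384, and the leukocyte subunit Itgam, with 0.20 (SE 0.12). Itga2b levels were 8.72, 7.94 and 8.84 in SSKO basal arrays and 7.91, 7.96, 8.28 and 7.97 in control basal arrays. SSKO basal array 2 thus lay within the control range. Arrays 1 and 3 were the SSKO arrays brightest for endothelial markers, whose part in the difference was not tested.

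The laminin and hemidesmosome list showed the laminin receptors beside their ligands. Of 17 genes tested, 14 fell and 2 rose in luminal cells, with a median of -2.25. Lamb3 and Lama3, chains of the alpha3beta1 and alpha6beta4 ligand laminin-332, had differences of -3.40 (SE 0.18) and -3.67 (SE 0.23). The perlecan gene Hspg2 had a difference of -3.60 (SE 0.19) and the laminin chain gene Lama1 of -4.69 (SE 0.28), where all 3 luminal arrays lay under 6.74 and only the basal arrays carried it past the filter. The 2 genes that rose, chosen after their values were seen, were the laminin chain gene Lama5, by 0.56 (SE 0.16), and Plec, which encodes the beta4-binding plectin, by 0.54 (SE 0.13). In SSKO basal cells none passed in limma, and the smallest p were those of Lama2, at -0.80 (SE 0.41), and Lama1, at -0.38 (SE 0.28).

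Of 16 tested collagen, fibronectin, tenascin and RGD ligand genes, 11 fell and 1 rose in luminal cells, with a median of -2.23. The basement membrane collagens Col4a2 and Col4a1 had differences of -4.34 (SE 0.16) and -3.88 (SE 0.18). Vcam1, a ligand of alpha4 and alpha9 integrins, had a difference of -3.44 (SE 0.29) and Fbln5, an elastic fibre protein, of -2.82 (SE 0.24). The gene that rose was Npnt, which encodes the alpha8 ligand nephronectin, by 1.62 (SE 0.28, limma adjusted p = 6.60e-04). Fibroblast markers moved with this list, 9 of 9 tested being lower in luminal cells. Col1a1, Col1a2 and Col3a1, named outside the rule for choosing genes, belong to both lists. The part of fibroblast transcripts in the matrix differences was not tested.

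Of 11 tested genes of the latent TGF-beta axis, 6 fell and 1 rose in luminal cells, with a median of -1.40. Differences were -4.05 (SE 0.18) for Ltbp2 and -3.63 (SE 0.26) for Ltbp4, which encode latent TGF-beta binding proteins, -4.06 (SE 0.30) for the co-receptor Tgfbr3 and -1.99 (SE 0.13) for the type I receptor Tgfbr1. Tgfb1, whose latent product is activated by alphavbeta6, rose by 0.54 (SE 0.15) and was named after its value was seen. In SSKO basal cells none passed, with Ltbp2 at 0.37 (SE 0.18) and Tgfbr1 at -0.26 (SE 0.13).

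Of 27 tested activators, inhibitors and adhesion complex genes, 18 fell and 2 rose in luminal cells, with a median of -0.77. Flna, a filamin that binds beta tails, had a difference of -2.28 (SE 0.11), the tensin gene Tns1 of -3.91 (SE 0.29) and the integrin-linked kinase gene Ilk of -1.53 (SE 0.13). Those that rose were Ptk2b, the kinase Pyk2, by 3.21 (SE 0.21), and Sharpin, an inhibitor of integrin activation named after its value was seen, by 0.89 (SE 0.14). In SSKO basal cells none passed, with Ptk2b at 0.46 (SE 0.21) and Parvb, a parvin, at 0.38 (SE 0.26).

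Of 7 tested tetraspanin partners, 3 fell and 2 rose in luminal cells, with a median of -0.25. Cd82 and Tspan9 rose by 2.65 (SE 0.14) and 1.41 (SE 0.13), and Tspan4 and Cd81 had differences of -0.76 (SE 0.17) and -0.51 (SE 0.15). Over all 6 lists, 91 genes in all, 0 passed in SSKO basal cells in limma and 4 had an unadjusted p under 0.05 (Npnt, Cd82, Itga2b and Tnc), a share of 4.40% against 3.03% of all genes. Npnt had levels of 9.63, 9.18 and 8.99 in SSKO basal arrays and 8.74, 7.98, 8.44 and 8.59 in control basal arrays. Its SSKO arrays lay above all control arrays, with a difference of 0.83 (SE 0.28). Cd82 showed the same order, with a difference of 0.42 (SE 0.14). Tnc, the alpha9beta1 ligand tenascin-C, had levels of 10.29, 9.87 and 11.53 in SSKO basal arrays and 8.59, 8.60, 8.81 and 10.71 in control basal arrays. Control basal array 4 alone among the controls reached the SSKO range, and the difference was 1.39 (SE 0.60).

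**Figure D4:**
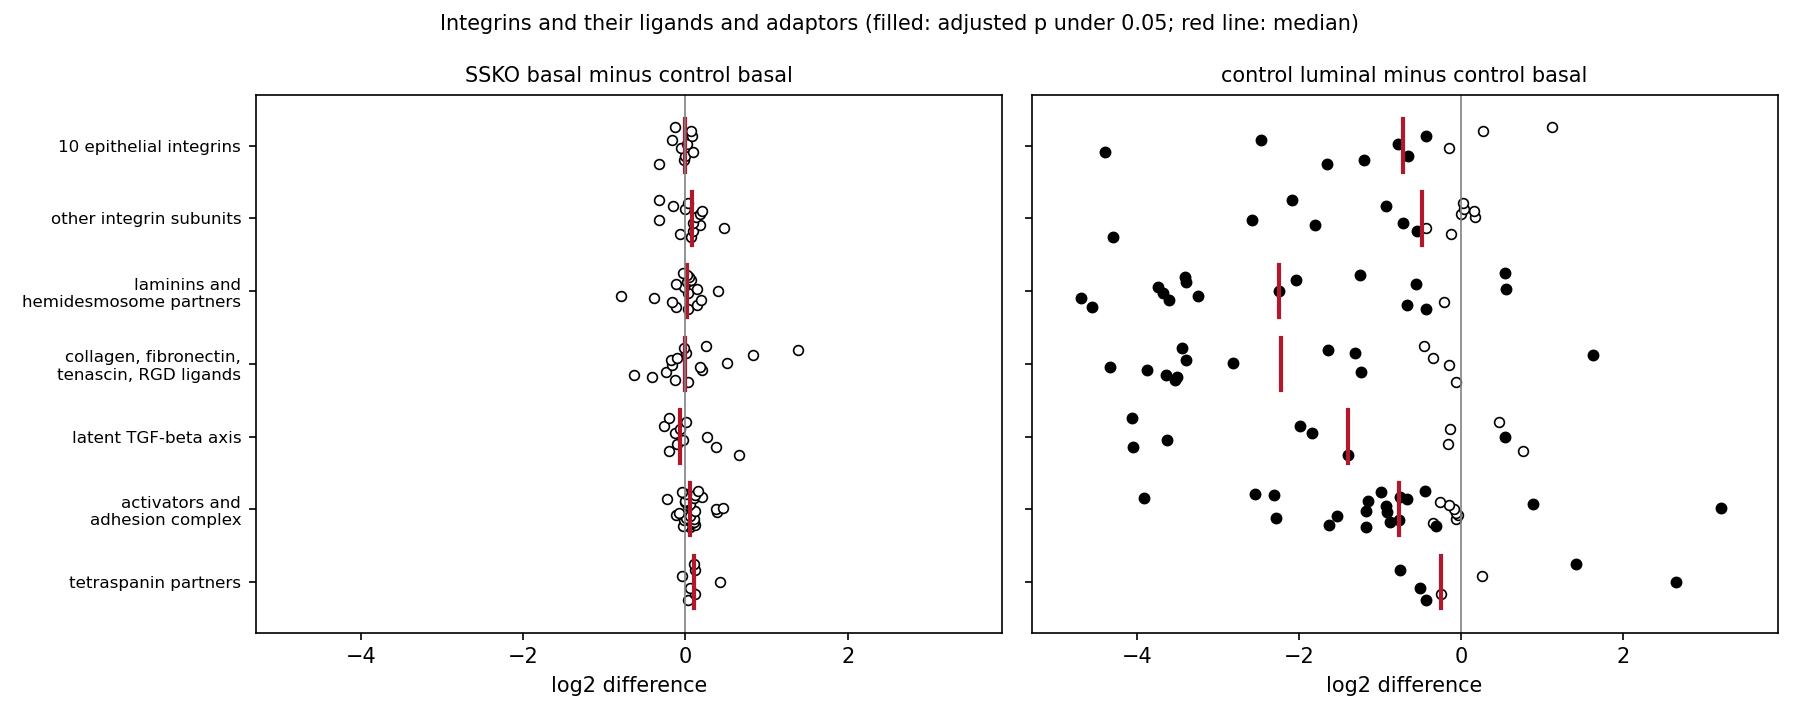
log2 differences (horizontal axis) of the 10 integrins and 6 lists of related genes (rows) for SSKO basal minus control basal (left) and control luminal minus control basal (right). Each point is a gene, filled where its adjusted p was under 0.05, and the red line is the list's median. On the left no point is filled, and on the right the 6 list medians lie between -2.25 for laminins and hemidesmosome partners and -0.25 for tetraspanin partners.

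The genes most like the gate antigens in pattern were found by Pearson's r over the 10 arrays, a measure dominated by the split into luminal and basal arrays. Integrins and predicted gene models were left out of the search and of the counts below. For Itgb1 they were Prkcq (0.984), Cda (0.984) and Ereg (0.979), and for Itgb3 they were Crispld1 (0.990), Pcf11 (0.987) and Col9a2 (0.987). Over the 7 basal arrays alone these genes had r of 0.939, 0.834 and 0.726 with Itgb1 and of 0.862, 0.919 and 0.860 with Itgb3, in the same order. The genes were picked on all 10 arrays, these 7 among them, so the basal values are no separate evidence of likeness. How common such values are over the 7 basal arrays was not counted. Over all 10 arrays high values were common, with at least 1053 genes above 0.9 for Itgb1 and at least 1315 for Itgb3.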

How the data were processed

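The authors deposited 1 linear intensity per probe set and array, for 28815 probe sets on 10 arrays. Expression Console 1.1 and PLIER 2.0 appear in the submitters' processing notes, with no step assigned to either. The sources used here do not say how arrays were scaled to each other and name no build. Array medians were 205 to 228. The number of arrays limits the precision, and batches could not be examined.

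By the platform annotation, 21780 probe sets had 1 gene symbol, 1605 several and 5430 none. On log2(intensity + 16), the dimmest 25% by mean (under 6.74) were dropped and the brightest probe set was kept per gene. All 10 arrays entered 1 limma 3.58.1 model (lmFit, eBayes, R 4.3.3) of 3 groups, with 7 residual degrees of freedom, two-sided tests and Benjamini-Hochberg adjustment over 15815 genes. The code was tested on simulated data. Figures used matplotlib 3.10.9.

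The 10 genes and the lists were chosen with earlier results of these data known. Named besides the 10 are Pygo2, Cd24a and, per list and comparison, up to 4 called genes by smallest p (or, with no call, 2 by smallest p). Also named are the 3 genes of highest r with Itgb1 and Itgb3, integrins and predicted gene models left out. Genes named outside this rule are marked as such. Alternatives varied the pseudocount, filter, normalization, probe choice, samples fitted, variance model, array weights, replicate block and covariates, and left out arrays.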

Additional observations from a re-analysis of the deposited data

How the results depend on the processing

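In the luminal comparison no integrin difference changed sign under 25 alternatives. Itga9, Itgb3, Itga2, Itga3, Itgb1 and Itga6 were called in all 25, Itgb4 in 16, Itgb6 in 3 and Itgav and Itgb5 in none of them. In the SSKO comparison none of the 10 was called under any alternative (limma, at most 1 at an unadjusted p under 0.05). The number of genes called there, 6, was 1 to 27 with 1 array left out (2 without control basal array 2, 27 without SSKO basal array 2 and 1 without SSKO basal array 3). It was 3 with quantile normalization, 3 with dim values raised to the filter level, and 0 (limma, 214 at an unadjusted p under 0.05) without the 3 basal arrays brightest for endothelial markers. Signs of SSKO differences turned in 22 of 250 values, none called, and the cause was not tested. Itgb1 was -0.012 with quantile normalization and -0.029 with median centring. Without the 3 endothelial-bright arrays Itgb1 was -0.026, Itga3 0.045, Itga6 0.13 and Itgav 0.032. With the endothelial covariate Itga3 was 0.029 and Itga6 0.025, and with array weights Itga6 was 0.013. With 1 array left out, Itgb1 lay between -0.085 and 0.10, Itgb5 between -0.061 and 0.17, Itgb6 between -0.40 and 0.26, Itga3 between -0.054 and 0.018, Itga6 between -0.056 and 0.048 and Itga9 between -0.020 and 0.20. Deviations of same-numbered SSKO and control basal arrays correlated at 0.63, 0.46 and 0.047. Those of same-numbered luminal and basal arrays correlated at -0.081, -0.079 and -0.060. SSKO arrays 1 and 2 correlated best with the control basal array of their own number. Their values with the other control basal arrays were -0.27 to -0.21 for array 1 and -0.44 to 0.17 for array 2. SSKO array 3 correlated best with control basal array 4, at 0.43. The labels name no pairing, and a shared source of same-numbered arrays was not tested. With the replicate block 5 genes were called in the SSKO comparison and 6962 in the luminal one, against 6 and 7001 without it. Under the block the SSKO differences of Itgb3, Itgb6 and Itga3 were -0.37, 0.26 and 0.016, and the luminal ones of Itgb6 and Itgb4 were 1.51, adjusted p = 0.00101 (called) and -0.37, adjusted p = 0.0791 (not called), control basal array 4 then standing alone with its number. Itgb4 was not called either with median centring (-0.40, adjusted p = 0.0568), in a fit to the compared groups (-0.44, adjusted p = 0.0528), with the endothelial covariate (-0.43, adjusted p = 0.0630) or without the endothelial-bright arrays (-0.42, adjusted p = 0.0926).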
